A study of Mus musculus with 12 samples.

Results

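Haem is made from glycine and succinyl-CoA by a chain of enzymes that begins and ends in the mitochondrion, and it is opened again by haem oxygenase. The genes described here are the enzymes Alas1, Alad, Uros, Urod, Cpox, Ppox and Fech, the oxygenase Hmox1, and Mb, the gene of myoglobin, the haem protein that binds oxygen in muscle fibres. Every probe set given to only 1 of these symbols was taken, which made 21 probe sets for 9 genes, among 18193 genes with such a probe set on the array. The genes were chosen by their pathway with earlier results of these arrays known, and Alas1 was selected on its low signal in knockout soleus. The soleus genotype difference is therefore given for these genes as a description with no p.

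The arrays (Affymetrix, biotin-labelled cRNA from total RNA) compared mice labelled as H6pd knockout (KO) with wild-type mice (WT) in soleus and in tibialis anterior (TA), at 4 weeks of age. Each muscle and genotype had 3 biological replicates, which makes 4 groups and 12 arrays. The product of H6pd, hexose-6-phosphate dehydrogenase, makes NADPH inside the endoplasmic reticulum. The submitters chose the muscles for their different fibre types and metabolism, and noted no overt sign of muscle disease in tissue sections at that age. The sources used here do not give the strain, the sex, the allele, or whether both muscles came from the same mice.

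As background, 5-aminolevulinate synthase 1 (Alas1) makes the first, rate-limiting precursor in all cells except the red cell lineage, which uses Alas2. Alad joins precursor molecules into a pyrrole, Uros closes the ring of uroporphyrinogen III, Urod and Cpox shorten its side chains, Ppox oxidises it, and ferrochelatase (Fech) inserts iron. Muscle needs haem for myoglobin and for the cytochromes of the respiratory chain, and slow oxidative fibres are rich in both. Nuclear respiratory factor 1 and the coactivator encoded by Ppargc1a are known regulators of Alas1, and a CCAC element upstream of the myoglobin gene is known to matter for its expression in muscle.

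Start-site windows of 3 genes are shown because the differences below turn on these genes. Each runs from 250 bases before to 50 bases after an annotated start on the minus strand, in RefSeq's sequence of GRCm38.p6, and is printed 5′ to 3′ along the gene. Alas1 is the window chr9:106247905-106248204, Uros is chr7:133709246-133709545 and Mb is chr15:77022738-77023037. Capitals mark matches on either strand to the core of the nuclear respiratory factor 1 motif, GCGCANGCG, in Alas1 and Uros, and to the CCAC box, CCCCACCC, in Mb.
Alas1: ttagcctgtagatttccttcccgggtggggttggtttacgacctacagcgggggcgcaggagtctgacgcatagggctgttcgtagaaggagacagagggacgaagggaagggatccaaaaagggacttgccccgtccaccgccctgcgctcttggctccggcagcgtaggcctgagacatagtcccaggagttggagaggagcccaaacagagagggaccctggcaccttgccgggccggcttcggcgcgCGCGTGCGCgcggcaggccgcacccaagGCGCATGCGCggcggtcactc
Uros: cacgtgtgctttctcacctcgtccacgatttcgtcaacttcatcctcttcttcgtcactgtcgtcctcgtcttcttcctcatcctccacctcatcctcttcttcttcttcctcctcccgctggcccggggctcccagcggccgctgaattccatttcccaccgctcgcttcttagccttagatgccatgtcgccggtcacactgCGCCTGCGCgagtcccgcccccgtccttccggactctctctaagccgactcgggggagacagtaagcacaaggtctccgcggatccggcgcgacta
Mb: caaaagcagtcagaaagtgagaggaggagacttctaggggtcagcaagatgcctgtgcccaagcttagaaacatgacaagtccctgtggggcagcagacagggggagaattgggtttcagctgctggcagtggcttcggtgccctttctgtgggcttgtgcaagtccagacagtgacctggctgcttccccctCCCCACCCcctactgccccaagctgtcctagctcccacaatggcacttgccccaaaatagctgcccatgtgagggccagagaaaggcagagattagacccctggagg

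In the Alas1 window the core motif matched 3 times, 1 base past the start on the opposite strand and at 29 and 30 bases past it, where matches on the 2 strands overlap. The Uros window held 1 match, 46 bases before its start. The Mb window held 1 CCAC box, 57 bases before its start, and the Alas1 window held 1 on the opposite strand, 228 bases before its start. Over 32851 windows of 300 bases from 27025 genes, 6.25% held the core motif and 9.99% the CCAC box. The E-box letters CANNTG, which read the same on both strands, were in 72.3% of the windows, and occurred 0 times in the Alas1 window, 1 time in the Uros window and 3 times in the Mb window. The sequence table held windows for 7 of the 9 genes, 12 windows in all. Of the 9 windows not shown, the second of Alas1 overlaps the one shown and holds the same core matches, and the third of Mb holds the same CCAC box. The other 7, which are the second Uros window, the first Mb window, both of Alad and those of Urod, Cpox and Ppox, held neither the core motif nor the CCAC box. A match is a run of letters, and no binding was measured here.

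Values below are log2 signals after quantile normalization of the deposited table, and a difference of 1 is a doubling of signal. Signals of different probe sets are not compared with each other, since each probe set has its own response. Of the 21 probe sets, 16 passed the filter on dim signals, and 14 of these lay above the floor, taken as a mean log2 signal of 4. Those 14 cover all 9 genes. The 7 in the floor were 1 each for Alad, Uros, Cpox, Fech and Mb and 2 for Ppox, and the 2 of them that were tested, Cpox 1440747_at and Ppox 1448065_at, stayed at 2.75 to 2.80 and at 3.09 to 3.27.

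On the targeted gene, the H6pd probe set read 4.90 ± 1.05 (SD, n = 3) in KO soleus and 6.27 ± 0.78 in WT soleus, and 6.96 ± 0.50 in KO TA and 6.85 ± 0.93 in WT TA, so the genotype groups overlapped in both muscles. Neither difference passed the test (limma, adjusted p = 0.654 and 0.972). The sources used here do not say whether this probe set lies in the deleted part of H6pd, and the genotypes are those of the labels. The 10 slow fibre markers on the array, such as Myh7 and Tnni1, were all higher in soleus than in TA in both genotypes, by a median of 7.29 in WT and 6.16 in KO. On the second principal component the 4 arrays numbered 3 stood apart from all others, at -55.1 to -39.0 against 11.1 to 32.3. In these 4 arrays the mean log2 signal of 4 probe sets that share several haemoglobin genes was 10.96 to 12.06, against 12.9 to 14.11 in the other 8.

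**Figure D1:**
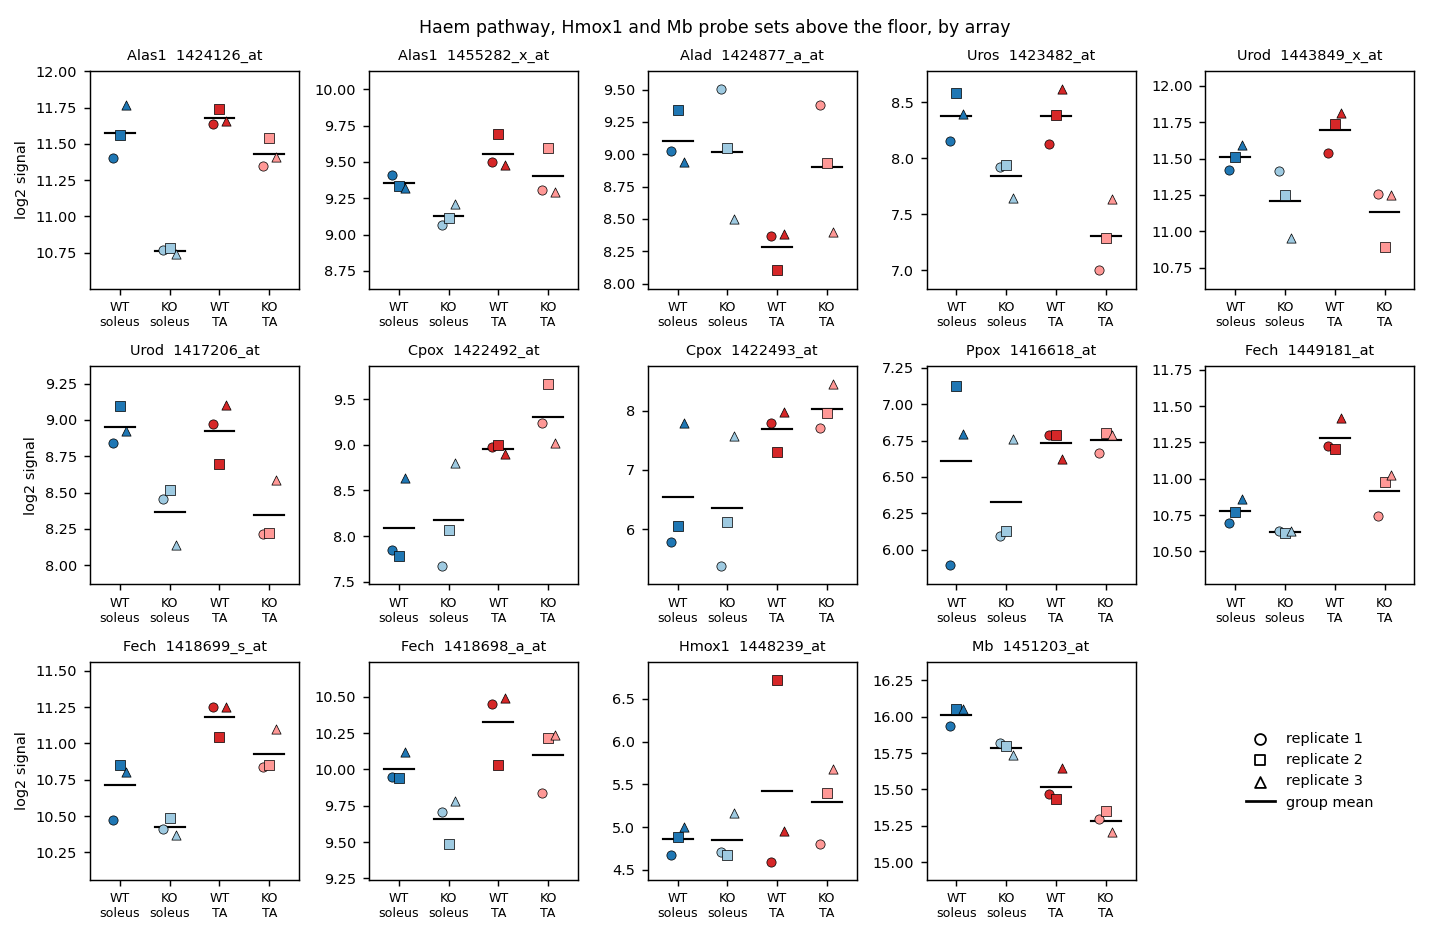
Log2 signal (vertical axis, quantile normalized, its range set for each panel) of the 14 probe sets above the floor on each of the 12 arrays, by group. Circles, squares and triangles are replicates 1, 2 and 3, and lines are group means. The KO soleus arrays for Alas1 1424126_at lie at 10.74 to 10.78, below every other array, and the soleus arrays numbered 3 stand high for both Cpox probe sets.

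In soleus, the first enzyme of the pathway stood lowest in the knockout. Alas1 1424126_at read 10.77, 10.78 and 10.74 on the KO arrays and 11.40, 11.56 and 11.77 on the WT arrays, a difference of -0.81 (SE 0.10), or 57.0% of the WT signal. The groups did not overlap, and the 3 KO arrays agreed to within an SD of 0.021. The second Alas1 probe set, 1455282_x_at, read 9.06, 9.12 and 9.21 against 9.41, 9.33 and 9.32, also with no overlap, but its difference was only -0.23 (SE 0.11). The 2 Alas1 probe sets thus shared the direction and differed in size.

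The differences of Uros and Urod, in the middle of the chain, lay between those of the 2 Alas1 probe sets. Uros read 7.93, 7.94 and 7.65 in KO soleus against 8.15, 8.58 and 8.40 in WT soleus, a difference of -0.54 (SE 0.20). Urod 1417206_at read 8.45, 8.52 and 8.14 against 8.84, 9.10 and 8.92, a difference of -0.58 (SE 0.16). In both, each KO array lay under each WT array. The brighter Urod probe set, 1443849_x_at, also stood lower, by 0.31 (SE 0.14), with 11.41, 11.25 and 10.95 against 11.42, 11.51 and 11.60. Alad, which acts second in the chain, overlapped between genotypes, at 9.51, 9.05 and 8.50 in KO and 9.03, 9.34 and 8.94 in WT.

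The last steps were spread more widely. The Cpox probe sets had differences of 0.09 (SE 0.31) and -0.19 (SE 0.61), and Ppox of -0.28 (SE 0.29), all within about 1 standard error. The 3 Fech probe sets had differences of -0.14, -0.29 and -0.34 (SE 0.10, 0.12 and 0.16). Fech 1449181_at, the brightest of them, read 10.64, 10.63 and 10.64 in KO and 10.70, 10.77 and 10.86 in WT. Hmox1, the inducible haem oxygenase, was dim in both genotypes, at 4.71, 4.67 and 5.17 against 4.68, 4.89 and 5.004. Myoglobin read 15.82, 15.80 and 15.74 in KO soleus and 15.94, 16.05 and 16.05 in WT soleus, a difference of -0.23 (SE 0.07) with no overlap. Its signals are near the top of the deposited table, whose highest value is 16.36.

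Counted together, 14 of the 16 tested probe sets were lower in KO soleus, where 49.9% of all tested probe sets were lower, and the median difference was -0.23 against 2e-04 over all. In 8 of the 16 the groups did not overlap, all of them lower in KO, while 11.2% of all tested probe sets did not overlap in either direction. Of the 22648 tested, 5 probe sets (0.0221%) were called at an adjusted p under 0.05, and 1 of the 16 members was among them. That count of members became 0 without KO soleus replicate 1, 2 or 3, without WT soleus replicate 2 or 3, and with the replicate number as a block, where 4 probe sets were called in all. Nothing is read from these counts about the pathway, since the comparison was used to choose Alas1.

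In TA, Uros fell in the knockout. It read 6.9999, 7.29 and 7.64 on the KO TA arrays and 8.13, 8.39 and 8.62 on the WT TA arrays, a difference of -1.07 (SE 0.20, adjusted p = 0.0277), or 47.6% of the WT signal. All 3 KO arrays lay below all 3 WT arrays. Uros was 1 of 16 members called, where 2.02% of all tested probe sets (458) were called. The difference without 1 array ranged from -1.23 to -0.91, and the call was lost without KO TA replicate 1 or 2 (adjusted p = 0.0554 and 0.0979) and without WT TA replicate 2 or 3 (0.0740 and 0.0728). In a fit of the 6 TA arrays alone its adjusted p was 0.134, and that fit called 3 probe sets in all. Without the 4 arrays numbered 3 the difference was -1.11 and did not pass (adjusted p = 0.0939). The call was also lost with median centring of the arrays in place of quantile normalization.

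Urod, the next enzyme, had TA values with no overlap on both probe sets that did not pass the test over all probe sets. The brighter one, 1443849_x_at, read 11.26, 10.89 and 11.25 in KO TA and 11.54, 11.74 and 11.82 in WT TA, a difference of -0.56 (SE 0.14, adjusted p = 0.0800). The other, 1417206_at, read 8.22, 8.22 and 8.59 against 8.97, 8.69 and 9.10, a difference of -0.58 (SE 0.16, adjusted p = 0.104). Its soleus difference was of the same size. Uros and Urod 1417206_at also had a Pearson r of 0.88 over the 12 arrays, given as a description of arrays that share groups.

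Alas1 in TA did not pass the test. Its 1424126_at values were 11.34, 11.54 and 11.41 in KO and 11.64, 11.74 and 11.66 in WT. They did not overlap, and the difference was -0.25 (SE 0.10, adjusted p = 0.255). The TA difference minus the soleus difference was 0.56 (SE 0.14) for this probe set and -0.53 (SE 0.28) for Uros. Both hold the soleus values, on which Alas1 was chosen, and are given as a description. In the comparison of the 2 genotype differences 0.0353% of all tested probe sets (8) were called by limma and 0 of 16 members. At an unadjusted p under 0.05 there were 1193 of all tested probe sets and 1 member, from which nothing is read for the same reason. With the replicate number as a block that comparison called 1 probe set in all.

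Alad went the other way in TA, at 9.38, 8.93 and 8.40 in KO against 8.37, 8.10 and 8.38 in WT. All KO arrays were above the highest WT array, KO TA replicate 3 by little, and the difference of 0.62 (SE 0.29) did not pass the test (adjusted p = 0.345). Cpox 1422492_at read 9.24, 9.66 and 9.01 in KO TA and 8.98, 9.001 and 8.90 in WT TA, a difference of 0.35 (SE 0.31, adjusted p = 0.673). The second Cpox probe set gave 0.34 (SE 0.61) and overlapped. Ppox differed by 0.02 (SE 0.29).

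Ferrochelatase 1449181_at read 10.75, 10.98 and 11.03 in KO TA and 11.23, 11.20 and 11.42 in WT TA, a difference of -0.37 (SE 0.10, adjusted p = 0.0915). With the replicate number as a block this probe set passed (adjusted p = 0.0344), which made 2 members called of 1231 probe sets in that fit. The other Fech probe sets differed by -0.25 and -0.23 (adjusted p = 0.366 and 0.556). Hmox1 spread most within 1 group, with 4.60, 6.72 and 4.95 in WT TA, where replicate 2 stood high, and 4.80, 5.40 and 5.67 in KO TA. Myoglobin read 15.30, 15.35 and 15.21 in KO TA and 15.47, 15.44 and 15.65 in WT TA, a difference of -0.23 (SE 0.07, adjusted p = 0.154) with no overlap, as large as the one in soleus.

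Of the 16 tested member probe sets 11 were lower in KO TA, where 51.2% of all were lower. In 9 of 16 the TA groups did not overlap, 7 lower and 2 higher in KO, against 21.7% of all tested probe sets. The 7 include Cpox 1440747_at, which lay in the floor and differed by -0.03, and both probe sets of Urod. Of the 14 above the floor, 10 were lower in KO in both muscles, as were 33.8% of 15711 probe sets above the floor. The 4 others were Alad, both Cpox probe sets and Ppox. The number lower in both was 9 on the table as deposited and with median centring, and 11 without the 4 arrays numbered 3. With 1 probe set per gene it was 6 of 9. Some genes enter the 14 with more than 1 probe set. Nothing is read from this count, since it holds the soleus differences, on which Alas1 was chosen.

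**Figure D2:**
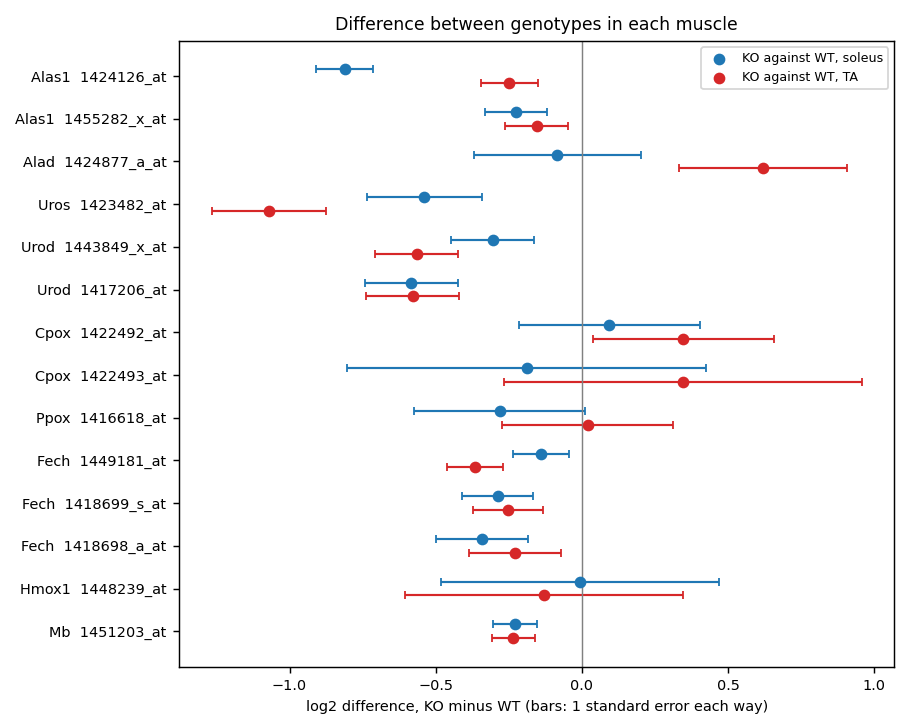
Log2 difference, KO minus WT, of the 14 probe sets above the floor in soleus (blue) and in TA (red). Bars extend 1 standard error each way. Alas1 1424126_at stands at -0.81 in soleus and -0.25 in TA, Uros at -0.54 and -1.07, and Mb at -0.23 in both.

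Between the muscles of wild-type mice, Mb and Fech ran in opposite directions. Myoglobin was higher in soleus than in TA by 0.49 (SE 0.07, adjusted p = 0.00368), or 141% of the TA signal, and the lowest soleus array (15.94) lay above the highest TA array (15.65). Fech 1449181_at was lower in soleus by 0.51 (SE 0.10, adjusted p = 0.0125) and Fech 1418699_s_at by 0.47 (SE 0.12, adjusted p = 0.0437), while 1418698_a_at had a difference of -0.32 (adjusted p = 0.240). These 3 were the members called, of 16, where 7.7% of all tested probe sets (1745) passed. With the replicate number as a block 3 members and 3296 probe sets passed.

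The Mb call was kept in 17 of 18 alternatives, all but the fit of the 6 WT arrays alone (adjusted p = 0.0506). Fech 1449181_at kept its call in 15, losing it with median centring of the arrays (-0.36, adjusted p = 0.0734), in the WT arrays alone (0.0665) and without WT soleus replicate 1 (-0.46, 0.0534). Fech 1418699_s_at kept its call in 5 of 17 alternatives and lost it on leaving out any 1 of the 6 WT arrays (adjusted p = 0.0549 to 0.135).

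Alas1 1424126_at did not differ between the WT muscles by more than its error, at -0.10 (SE 0.10, adjusted p = 0.551), and its groups overlapped. Uros differed by -0.0027 (SE 0.20) and Urod 1417206_at by 0.03 (SE 0.16). Alad was higher in WT soleus by 0.82 (SE 0.29, adjusted p = 0.115), with no overlap. Cpox was lower in WT soleus by 0.87 (SE 0.31, adjusted p = 0.122) and by 1.15 (SE 0.61, adjusted p = 0.283) on its 2 probe sets.

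The Cpox values turned on the arrays numbered 3. Cpox 1422492_at read 7.85, 7.78 and 8.63 in WT soleus and 8.98, 9.001 and 8.90 in WT TA, and 1422493_at read 5.78, 6.06 and 7.79 against 7.80, 7.30 and 7.98. In both, soleus replicate 3 stood high. KO soleus had the same order, at 7.67, 8.06 and 8.81, and at 5.38, 6.12 and 7.57. Without the 4 arrays numbered 3 the WT differences were -1.17 and -1.63 and passed (adjusted p = 0.0229 and 0.0327), and the KO differences were -1.58 and -2.09 (0.0122 and 0.0197). In TA the arrays numbered 3 were the highest of their groups on 1422493_at, at 8.45 in KO and 7.98 in WT, but the lowest on 1422492_at. These arrays are low in haemoglobin signal in both muscles, and the part of that in the Cpox values was not tested.

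In the knockout the muscles differed in Alas1 as well. Alas1 1424126_at was lower in KO soleus than in KO TA by 0.67 (SE 0.10), and by 0.59 to 0.71 under the alternatives. This is a description with no test, since the 3 KO soleus arrays are those whose low signal chose the gene. The other Alas1 probe set had a difference of -0.27 (SE 0.11). Myoglobin was higher in KO soleus by 0.50 (SE 0.07, adjusted p = 0.00411), a call kept in all 18 alternatives.

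Fech 1418699_s_at was lower in KO soleus by 0.51 (SE 0.12, adjusted p = 0.0369), and this call was lost on leaving out any 1 of the 6 KO arrays (adjusted p = 0.0650 to 0.115). Fech 1449181_at and 1418698_a_at had differences of -0.28 and -0.44 (adjusted p = 0.125 and 0.141), each with no overlap. Cpox differed by -1.12 (SE 0.31, adjusted p = 0.0622) and -1.69 (SE 0.61, adjusted p = 0.147), and both probe sets passed without KO soleus replicate 3 (-1.44 and -2.29, adjusted p = 0.0209 and 0.0481). Uros was higher in KO soleus than in KO TA by 0.53 (SE 0.20, adjusted p = 0.155), with no overlap.

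In the knockout the fit called 3 of 16 members, where 6.6% of all tested probe sets (1494) were called. Mb and Fech 1418699_s_at are the calls described above, while Alas1 1424126_at enters the count only and is not read as a test. Nothing is read from the KO counts of members given here, since Alas1 was chosen on its low KO soleus signal. With the replicate number as a block 6 members and 2989 probe sets passed, the additional members being both Cpox probe sets (adjusted p = 0.0447 and 0.0240) and Fech 1449181_at (0.0456). Groups did not overlap for 7 members in WT, against 33% of all tested probe sets, and for 10 in KO, against 27.7%. These counts include probe sets in the floor, Cpox 1440747_at in WT and Ppox 1448065_at in KO. The WT and KO muscle comparisons share no array, though arrays of the same number deviated together across the genotypes. The direction was the same in both for every tested member probe set but Uros and Urod 1443849_x_at. Uros differed by -0.0027 in WT and 0.53 in KO, and Urod 1443849_x_at by -0.19 and 0.07. The share of all probe sets with the same direction in both was not computed.

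**Figure D3:**
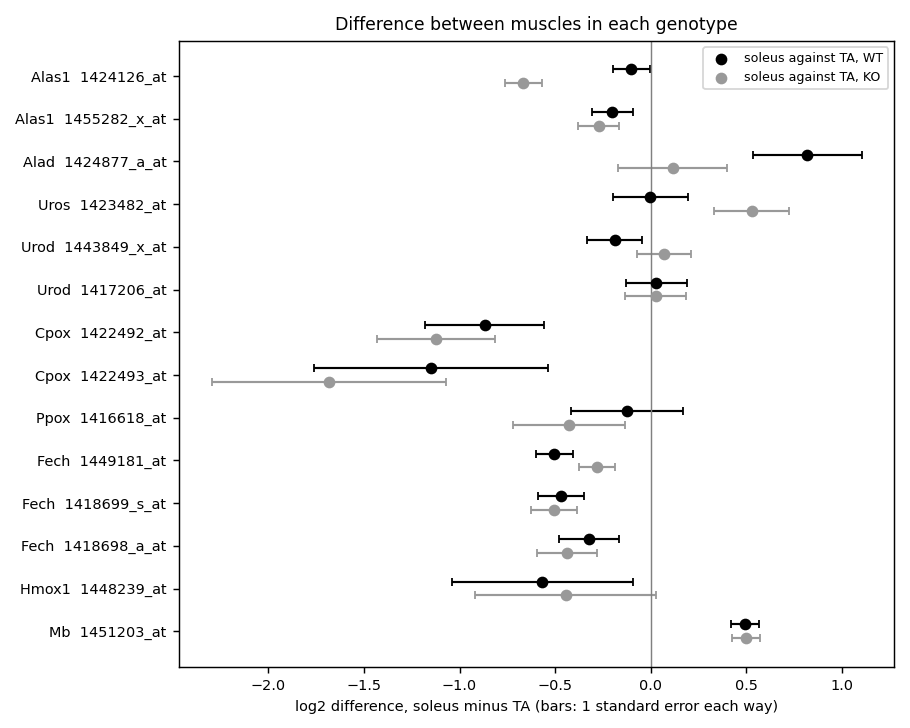
Log2 difference, soleus minus TA, of the 14 probe sets above the floor in WT (black) and KO (grey). Bars extend 1 standard error each way. Mb lies at 0.49 and 0.50, the 3 Fech probe sets between -0.51 and -0.28, and Alas1 1424126_at at -0.10 in WT and -0.67 in KO.

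**Figure D4:**
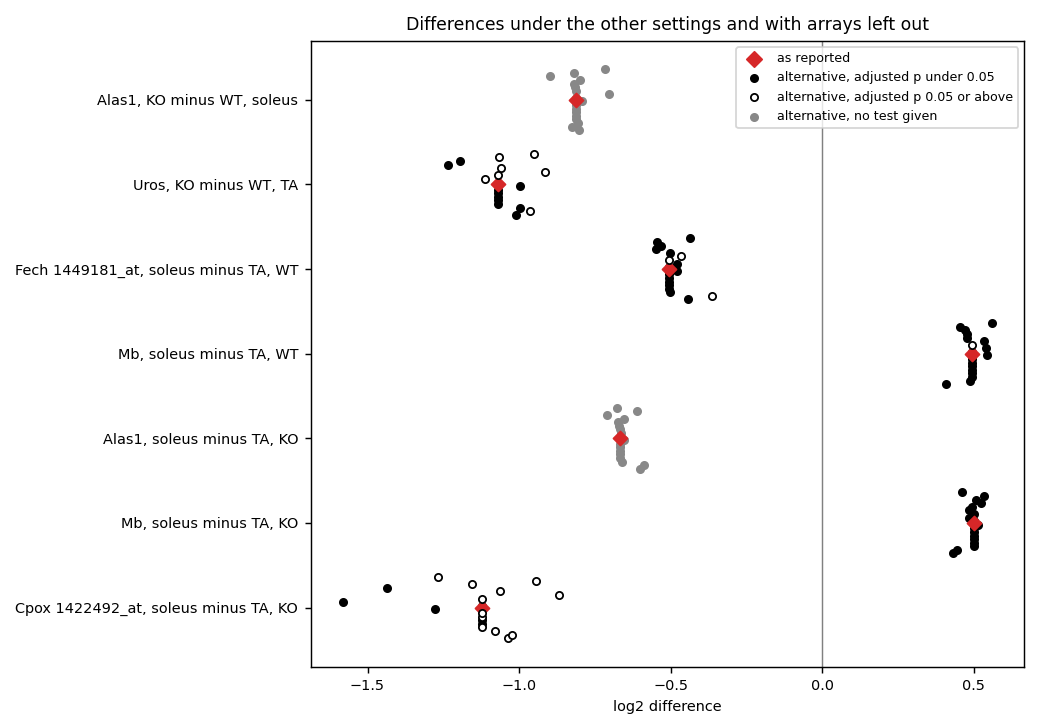
Log2 difference (horizontal axis) for 7 of the differences described, as reported (red diamonds) and under 18 alternatives each. Filled points passed an adjusted p of 0.05, open points did not, and grey points carry no test. Uros in TA stays between -1.23 and -0.91 with 11 of 18 points filled, and Mb between 0.41 and 0.56 in WT.

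By level, Mb ran from WT soleus (16.01 ± 0.065, SD, n = 3) through KO soleus (15.78 ± 0.040) and WT TA (15.52 ± 0.11) to KO TA (15.28 ± 0.072). No group's range overlapped its neighbour's. Alas1 1424126_at ran from WT TA (11.68 ± 0.051) through WT soleus (11.58 ± 0.18) and KO TA (11.43 ± 0.098) to KO soleus (10.76 ± 0.021), and the first 3 overlapped their neighbours. Uros was level in the 2 WT groups (8.38 ± 0.24 in TA and 8.38 ± 0.22 in soleus), then KO soleus (7.84 ± 0.17), then KO TA (7.31 ± 0.32), with no overlap below the WT groups. Fech 1449181_at ran from WT TA (11.28 ± 0.12) through KO TA (10.92 ± 0.15) and WT soleus (10.78 ± 0.084) to KO soleus (10.64 ± 0.0059), and only KO TA and WT soleus overlapped. In whole muscle, fewer cells of a type and less RNA per cell cannot be told apart.

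For the lists of related genes and markers below, each gene is counted by its brightest probe set. Its other tested probe sets are given where a related gene is named as passing. In KO against WT, limma's unadjusted p was under 0.05 for 1757 of all 22648 tested probe sets in soleus and 3455 in TA. The number was 5493 between the WT muscles, 4749 between the KO muscles and 1193 in the comparison of genotype differences. The counts at that level below are to be read beside these, though these cover every tested probe set and not only the brightest of each gene. The number among brightest probe sets was not computed. Other genes that handle haem were given by a list of 21 genes, of which 17 were tested. In KO soleus 0 of 17 passed limma's test, with 4 at an unadjusted p under 0.05. In KO TA 1 of 17 passed. This was Abcb6, a porphyrin transporter of the ATP-binding cassette family. It fell from 9.07, 8.92 and 9.60 in WT TA to 7.35, 7.18 and 7.41 in KO TA, a difference of -1.89 (SE 0.24, adjusted p = 0.0111), with no overlap. The call was kept on leaving out any 1 array and lost in the TA arrays alone (adjusted p = 0.0847). In soleus the Abcb6 values were 7.33, 7.06 and 7.50 in KO and 7.87, 8.12 and 8.72 in WT. They did not overlap, and the difference of -0.94 (SE 0.24) did not pass limma's test (adjusted p = 0.290).

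Between the WT muscles 4 of the 17 passed. Clpx, a mitochondrial chaperone known to act on aminolevulinate synthase, was higher in soleus by 0.95 (adjusted p = 0.00352), while its dimmer probe set had a difference of 0.15 (adjusted p = 0.676). Hebp1, a haem-binding protein, was higher by 1.501 (adjusted p = 0.0277), a call lost without any 1 of the 3 WT soleus arrays or WT TA replicate 1 or 2 (adjusted p = 0.0550 to 0.0919). Slc25a39, a mitochondrial carrier, was lower by 0.76 (adjusted p = 0.00678), and its other 3 probe sets had differences of -0.68, -0.78 and -0.90 (adjusted p = 0.0335, 0.0526 and 0.0323). Abcb6 was lower by 0.96 (adjusted p = 0.0408), a call lost without WT soleus replicate 1 or 2 or any 1 of the WT TA arrays (adjusted p = 0.0527 to 0.145).

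Between the KO muscles 3 of the 17 passed. Clpx was higher in soleus by 0.67 (adjusted p = 0.0208), with 0.28 on its dimmer probe set (adjusted p = 0.464). Slc25a39 was lower by 0.65 (adjusted p = 0.0163), with -0.62, -0.87 and -1.02 on its others (adjusted p = 0.0509, 0.0410 and 0.0200). The Clpx call needed KO soleus replicates 1 and 2 and KO TA replicates 1 and 3 (adjusted p = 0.0614 to 0.0849 without 1 of them), and the Slc25a39 call needed KO soleus replicates 1 and 2 and KO TA replicate 3 (0.0550 to 0.0672). Pgrmc1, a membrane haem-binding protein, was higher by 0.72 (adjusted p = 0.04999) and kept that call without KO soleus replicate 3 alone of the single arrays left out (0.0902 to 0.177 without the others).

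Haem users and enzymes that attach haem were 16 tested of 18. By the brightest probe set none passed by limma in KO soleus or KO TA, with 3 and 2 at an unadjusted p under 0.05. A dimmer Nos1 probe set, with a mean signal of 2.84 in the floor, had a difference of 0.39 in TA (adjusted p = 0.0497). Suox, the haem enzyme sulphite oxidase, had differences of -0.83 in soleus and -0.74 in TA (adjusted p = 0.181 and 0.0560), with no overlap in either muscle. The mitochondrial cytochrome b5 gene Cyb5b was lower in soleus than in TA by 1.24 in WT (adjusted p = 0.000973) and by 0.95 in KO (adjusted p = 0.00468), and both calls held on leaving out any 1 array. Its 2 dimmer probe sets had smaller differences, of -0.45 and -0.72 in WT (adjusted p = 0.268 and 0.321) and -0.42 and -0.46 in KO (0.346 and 0.595), and did not pass. Suox was lower in soleus by 0.66 in WT and 0.76 in KO (adjusted p = 0.0397 and 0.0253). It lost the WT call without any 1 array but WT soleus replicate 2 (0.0785 to 0.139) and the KO call without any 1 array but KO soleus replicate 1 (0.0515 to 0.0933). Nos1, the neuronal nitric oxide synthase, was lower in KO soleus than in KO TA by 2.54 (adjusted p = 0.0478), and that call was lost without any 1 of the 6 arrays (0.0638 to 0.140). Its dimmer probe sets had differences of -4.75 (adjusted p = 0.0140), 0.02 (0.871) and, on the one with a mean signal of 2.84, -0.43 (0.0167). By the brightest probe set 2 of 16 genes passed in WT and 3 of 16 in KO, each lower in soleus. A second probe set of Cat, the gene of catalase, was higher in WT soleus by 1.47 (adjusted p = 0.0170), where the brightest one had a difference of 1.26 (adjusted p = 0.0909).

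Iron handling genes were 20 tested of 23. In KO soleus 0 of 20 passed by limma, with 8 at an unadjusted p under 0.05, and in KO TA 1 passed. This was Hjv, the gene of haemojuvelin, a co-receptor in the control of hepcidin. It read 11.81, 11.56 and 11.60 in KO TA and 12.51, 12.42 and 12.38 in WT TA, a difference of -0.78 (SE 0.10, adjusted p = 0.0111). Its second probe set gave -0.75 (adjusted p = 0.0189). The call of the first held on leaving out any 1 array and was lost without the 4 arrays numbered 3 (-0.78, adjusted p = 0.0894). In soleus the 2 probe sets had differences of -0.54 and -0.72 (adjusted p = 0.154 and 0.129). Slc40a1, the iron exporter ferroportin, read 8.48, 8.98 and 8.38 in KO soleus and 9.02, 9.51 and 10.17 in WT soleus, a difference of -0.95 (adjusted p = 0.376), and its second probe set gave -1.73 (adjusted p = 0.416).

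Between the muscles Hjv was lower in WT soleus by 0.41 (adjusted p = 0.0365), a call lost without any 1 array but WT soleus replicate 3 (0.0584 to 0.112), and was the 1 iron gene called there. Its second probe set gave -0.22 (adjusted p = 0.308). In the knockout 2 of 20 passed. Fdx1, a ferredoxin, was lower in KO soleus by 0.86 (adjusted p = 0.00550), a call that held on leaving out any 1 array. Slc40a1 was also lower in KO soleus, with a difference of -1.39 (adjusted p = 0.0196), against -2.08 (0.0543) on its second probe set. It did not pass without KO soleus replicate 1 or 3 or KO TA replicate 2 or 3 (0.0553 to 0.0771). Tfrc, the transferrin receptor, read 13.12, 13.09 and 12.57 in KO soleus and 14.04, 13.78 and 13.26 in WT soleus, a difference of -0.77 (SE 0.33, adjusted p = 0.616). Its dimmer probe sets gave -1.35 and -1.38 without passing, each within its standard error (1.98 and 1.85).

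Known regulators of the pathway were 13 tested of 13, and 0 passed by limma in any of the comparisons. At an unadjusted p under 0.05 there were 0 in either genotype comparison, 1 between the WT muscles, 4 between the KO muscles and 1 in the comparison of genotype differences. By the brightest probe set of each gene, the largest regulator differences in soleus were those of Nr1d1 and Hif1a. The clock repressor Nr1d1 read 6.01, 6.96 and 8.49 in KO and 7.19, 7.60 and 9.01 in WT, with overlap, and replicate 3 was the highest in both groups. Each KO value lay below the WT value of the same number. Hif1a, of the oxygen response, read 10.06, 9.74 and 9.91 in KO and 9.93, 9.54 and 9.23 in WT, with overlap. That is a difference of 0.34, and its dimmer probe sets gave 0.34 and -0.46. Ppargc1a, named after its values were seen because it is known to control Alas1, read 8.04, 8.77 and 9.002 against 8.74, 8.48 and 9.44, with overlap.

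**Figure D5:**
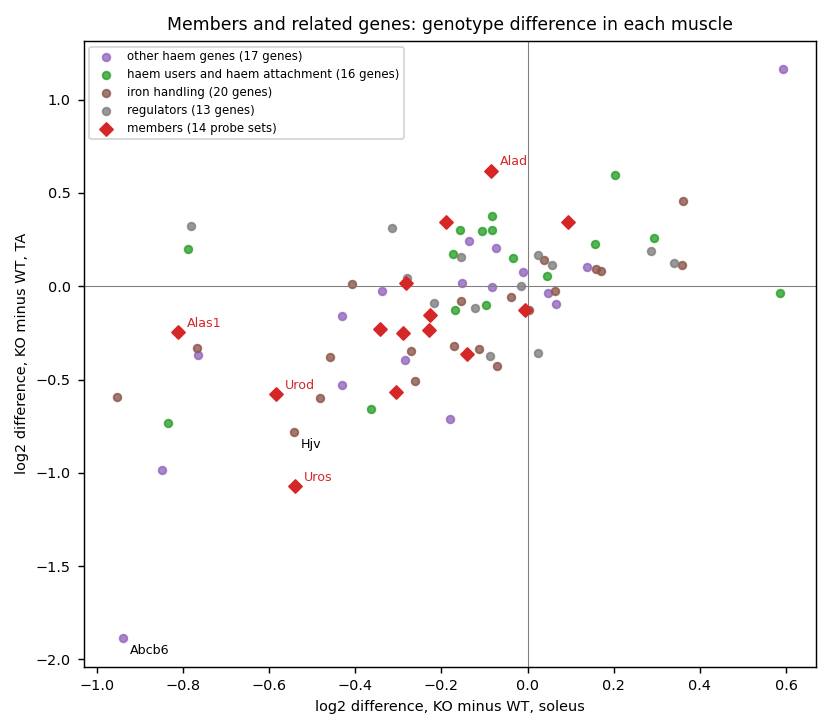
Log2 difference, KO minus WT, in soleus (horizontal) and TA (vertical) for the 14 member probe sets above the floor (red diamonds) and the brightest probe set of each tested gene of the 4 lists (dots). The 2 axes share no array. Abcb6 lies lowest, at -0.94 in soleus and -1.89 in TA, with Hjv at -0.54 and -0.78 and Uros at -0.54 and -1.07.

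Markers of other cells were read beside these values. Of 10 red cell lineage markers 3 were tested, with a mean per array of 3.19 to 4.84, close to the floor, and limma called 1 of them between the WT muscles and 0 in the other comparisons (0 or 1 at an unadjusted p under 0.05). The called marker was Slc4a1, the red cell anion exchanger, with a difference of -0.63, soleus minus TA (adjusted p = 0.0108). Its other 2 probe sets had differences of -0.10 and 0.0090 (adjusted p = 0.464 and 0.843). Alas2, the red cell form of the first enzyme, read 2.55 to 5.13 in KO soleus, 3.40 to 5.77 in WT soleus, 2.53 to 4.10 in KO TA and 2.54 to 6.81 in WT TA. The haemoglobin probe sets had group means of 12.78 ± 1.46 in KO soleus, 13.31 ± 1.09 in WT soleus, 12.26 ± 1.13 in KO TA and 12.98 ± 1.18 in WT TA, and genotype groups overlapped. By array number 1, 2 and 3 their means were 13.68, 13.55 and 11.09 in KO soleus and 13.90, 13.97 and 12.06 in WT soleus. In TA they were 12.9, 12.92 and 10.96 in KO and 14.11, 13.08 and 11.76 in WT. In both muscles each KO array thus lay below the WT array of the same number, which was not tested. Haemoglobin signal was present on every array and varied within groups, and the part of blood in the member values was not tested.

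The 8 endothelial markers were all lower in KO soleus, by a median of 0.30, with 0 called by limma and 1 at an unadjusted p under 0.05. Their mean per array was 8.07 to 8.52 in KO soleus and 8.50 to 8.73 in WT soleus. In TA 9 of 10 slow fibre markers were higher in KO, by a median of 1.14, with 0 called and 4 at an unadjusted p under 0.05, and their mean per array was 8.33 to 8.76 in KO TA and 6.26 to 8.23 in WT TA. In KO TA the 7 fibroblast markers and the 3 adipocyte markers tested were all higher, by medians of 0.20 and 0.36, as were 7 of 8 endothelial markers, by a median of 0.14, while the 3 red cell markers were lower, by a median difference of -0.47. None of these passed by limma, with 0, 0, 0 and 1 at an unadjusted p under 0.05. Between the WT muscles 4 of 10 fast fibre markers were called lower in soleus (Myh4, Atp2a1, Actn3 and Casq1), and the endothelial genes Pecam1 and Tek, the fibroblast gene Fn1 and the adipocyte gene Adipoq were called higher. Between the KO muscles the same 4 fast fibre genes and Fn1 were called in the same directions. Fast fibre markers had means of 13.23 to 14.45 in KO soleus and 13.98 to 14.76 in WT soleus. Of the myeloid markers 8 were tested and 0 called in any comparison, with 0 at an unadjusted p under 0.05, and Cd68 was high on 1 array, at 5.56, 6.39 and 9.68 in KO soleus. The part of these cell types in the member values was not tested.

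Over the 12 arrays and 8563 genes with a mean log2 signal above 5, the genes whose brightest probe set followed Alas1 most closely were Ttc19 (Pearson r = 0.95), Uqcrc1 (0.94), Rhot2 (0.94), Mrpl2 (0.92) and Pgp (0.91). For Mb they were Rcan2 (0.95), Abhd18 (0.94), Rspo3 (0.94), Etfdh (0.94) and Arid5b (0.94). These correlations rank genes over arrays that share 4 groups, so a gene that differs between the same groups ranks high.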

How the data were processed

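Total RNA from 12 muscle samples was hybridised to Affymetrix arrays. The deposited series table holds 1 log2 signal per probe set and array, from 0.889 to 16.36. The submitters' processing notes name MAS5, and the sources used here do not say how it relates to these log2 values. Arrays give no read depth, and 3 per group limit the precision.

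The deposited log2 values were quantile normalized, and probe sets above the 40th percentile of an array (log2 2.76) on at least 3 of 12 arrays were kept (27559 of 45101). Of these, 22648 with 1 gene symbol in GEO's platform annotation (13009 genes) were tested. Of all probe sets, 34945 probe sets had 1 symbol, 932 several, 9160 none and 64 were controls. Haemoglobin probe sets have several symbols and were only described, a choice made after seeing the data.

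limma 3.58.1 in R 4.3.3 fitted 4 group means over all arrays with a variance trend, and 2-sided p-values were adjusted by Benjamini-Hochberg over all 22648, with a threshold of 0.05. The script was tested on simulated data. Non-overlap means that all 3 values of a group lie on one side of the other's. The members, lists and named genes were chosen with earlier results of these data known. Named genes are all members, list genes past the test and otherwise at most 2 of a list by size of difference, and the 5 closest to Alas1 and Mb. Alternatives were the deposited scale, median centring, a pseudocount of 16, no filter, mean log2 above 5, 1 probe set per gene, no trend, robust eBayes, array weights, replicate blocks, fits of 2 groups, and arrays left out. They were also run on list genes past the test, chosen after seeing the data.

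Same-numbered arrays deviated together in all 6 pairs of groups (lowest correlation 0.10, in soleus), but numbers 1 and 2 were not matched throughout. KO soleus replicate 2 had a correlation of 0.45 with WT soleus replicate 1 and 0.10 with WT soleus replicate 2. Arrays numbered 3 had negative correlations with arrays of other numbers in every pair of groups. Between arrays numbered 3 the correlation was 0.51 to 0.67. The reported fit used no pairing, and the replicate block was run only as an alternative. The labels do not say that a number marks a shared day or litter, arrays with unequal numbers reached 0.45, and a KO and a WT array come from different mice.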

Additional observations from a re-analysis of the deposited data

How the results depend on the processing

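Of 58 member differences under 1034 alternative comparisons, 989 kept their direction and 45 turned, all of the latter in differences that passed no test as reported. Precision is limited by 3 arrays a group, and the Hmox1 probe set sits close to the floor. The cause of each change was not tested, except that fewer arrays or other probe sets entered by construction.

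Probe sets called in KO against WT soleus numbered 5 as reported, 3 with no filter, 1 with mean log2 above 5, 1 with no variance trend, 3 with robust eBayes, 176 with array weights, 2 without the 4 arrays numbered 3, 0 in the 2 groups alone and 6 to 18 leaving out 1 array. Members called there were 0 under the same settings but array weights, 0 with the replicate block and 0 to 1 leaving out 1 array. In TA the 458 became 1231 with the replicate block (members 2), 48 without the arrays numbered 3 (members 0), 3 in TA alone (members 0) and 78 to 525 leaving out 1 array (members 0 to 1), and median centring left 0 members. Between WT muscles the 1745 became 3948 with array weights (members 5), 3296 with the replicate block, 748 in WT alone (members 0) and 891 to 1718 leaving out 1 array (members 1 to 2), and median centring left 1 member. Between KO muscles the 1494 became 2989 with the replicate block (members 6), 673 in KO alone and 728 to 1346 leaving out 1 array (members 2 to 4), with 5 members under array weights. The 8 called in the difference of genotype effects became 2 on the deposited scale, 5 with median centring, 4 with no filter, 0 with mean log2 above 5, 5 with 1 probe set per gene, 1 with no variance trend, 1 with the replicate block and 1 to 23 leaving out 1 array.

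Directions turned as follows. In KO against WT soleus Alad turned to 0.093 without the arrays numbered 3 (-0.33 to 0.17 leaving out 1 array), Hmox1 to 0.038 and 0.018 on the deposited scale and with median centring (-0.17 to 0.083), and Cpox ranged over -0.22 to 0.36 and -0.80 to 0.43. In TA Ppox turned to -0.012 with array weights and -0.056 without the arrays numbered 3 (-0.037 to 0.064), and Hmox1 to 0.0034 with array weights (-0.54 to 0.52). Between WT muscles Alas1 turned to 0.037 with median centring, Uros to 0.14, 0.21, 0.21 and 0.11 (deposited, centred, weights, without the arrays numbered 3; -0.13 to 0.12), and Ppox to 0.048, 0.13 and 0.17 (deposited, centred, weights; -0.39 to 0.23). Leaving out 1 array, Urod 1417206_at there ranged over -0.084 to 0.12 and Hmox1 over -0.98 to 0.082. Between KO muscles Alad ranged over -0.14 to 0.37, Urod 1443849_x_at over -0.050 to 0.20 and Urod 1417206_at over -0.048 to 0.15.

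The scaling moved the split of all calls. The share higher was 48.3% as reported, 57.7% as deposited and 71.7% with median centring in KO TA, 42.9%, 52.5% and 68.3% between WT muscles, and 47.1%, 59.6% and 60.1% between KO muscles. Alas1 in KO against WT soleus stayed between -0.90 and -0.70 under the alternatives, as a description. With the replicate block, among the member differences and the list genes past the test as reported, no call was changed beyond those named with their results. Calls that other list genes may gain with it were not computed.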
